A study of Mus musculus with 32 samples.

Results

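Hepatic lipogenesis was followed through 8 genes, Srebf1, Acly, Me1, Fasn, Thrsp, Elovl6, Scd1 and Gpam, in mouse livers collected 0, 20, 30 and 40 h after partial hepatectomy, in which part of the organ is cut away and the remnant regrows. The probe sets were all those that the platform annotation gives to 1 gene only, where that gene's current symbol or a synonym is one of the 8. The 8 genes were among 8251 with a probe set of their own. Their probe sets were 11 of the 12488 probe sets of the array, with 3 for Scd1, 2 for Elovl6 and 1 for each other gene. All 11 passed the filter on low values, and no probe set of several genes named a member. The mice were male C57BL/6 animals aged 3 months, all homozygous for a floxed Rps6, the gene of a protein of the small ribosomal subunit. Cre plus mice also carried the mx-cre transgene, a Cre recombinase under an interferon-responsive promoter, and the deletion was induced with polyinosinic-polycytidylic acid. Cre minus mice had the floxed gene without the transgene. The interferon-responsive promoter is not restricted to hepatocytes. Whether the Cre minus mice were injected, how long before surgery the injection was given, and whether each liver came from its own mouse were not stated. The p-values therefore rest on sample-to-sample spread, which may be technical. There were 4 samples in each group except Cre plus at 30 h, with 3, and Cre plus at 40 h, with 5, and the labels place them in the batches PHX2 (15 samples) and PHX3 (17 samples), both present in every group. PHX2 holds only 1 sample of Cre minus at 40 h, and PHX3 only 1 of Cre plus at 30 h.

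Lipogenesis turns surplus carbohydrate into fatty acids. Citrate leaves the mitochondrion and is split into acetyl-CoA, the acetyl units are joined into palmitate with NADPH as the reducing agent, and palmitate is then elongated, desaturated and attached to glycerol. In the liver the pathway is switched on after a meal by insulin and carbohydrate, in large part through the transcription factor encoded by Srebf1, and it is low in fasting. The liver remnant is known to accumulate fat for a time after partial hepatectomy.

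Each sample was hybridised to 1 Affymetrix 3' expression array, and all values are log2 signals, for which the number of arrays limits the precision. Array medians lay between 5.88 and 5.99. The probe set that the annotation shares between Rps6 and the pseudogene Rps6-ps4 read 10.99 to 11.82 in the 16 Cre minus samples and 6.24 to 7.69 in the 16 Cre plus samples, which matched the labels. Alb, the albumin gene of hepatocytes, read between 13.35 and 13.83 on every array, and Adipoq, a defining adipocyte gene, between 2.98 and 4.38. Replicate C of Cre minus at 30 h, replicate A of Cre plus at 30 h and replicate D of Cre plus at 40 h stood apart, each with a mean correlation under 0.95 with the other arrays of its group, and results at 30 and 40 h are also given without these 3 arrays. Without them Cre plus at 30 h holds only PHX2 samples. A probe set counted as called where its adjusted p in limma, over 9249 tested probe sets, was under 0.05. The batch term was called for 27% of the tested probe sets, and among the members only for Me1, which was 0.50 higher in PHX3 (SE 0.18, adjusted p = 0.0394). In bulk liver RNA, fewer cells of a type and less RNA per cell cannot be told apart.

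The promoters of Fasn, Acly, Elovl6 and Thrsp are shown because these genes fell 20 h after surgery in Cre minus livers and have a single start in the RefSeq table used (assembly GRCm38.p6). The table held 7 of the 8 genes, with 11 starts among them. Each sequence is the 250 bases before the start, 5' to 3' on the gene's strand, with every CCAAT and every GC box (GGGCGG) on either strand in capitals. They lie at chr11:120824548-120824797 on the minus strand for Fasn, chr11:100528001-100528250 on the minus strand for Acly, chr3:129532136-129532385 on the plus strand for Elovl6 and chr7:97417551-97417800 on the minus strand for Thrsp.
Fasn: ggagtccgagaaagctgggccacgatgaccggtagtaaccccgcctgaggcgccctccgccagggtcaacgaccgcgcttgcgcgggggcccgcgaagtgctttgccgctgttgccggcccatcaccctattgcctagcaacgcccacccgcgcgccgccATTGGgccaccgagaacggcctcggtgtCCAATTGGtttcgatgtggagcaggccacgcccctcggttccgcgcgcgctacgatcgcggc
Acly: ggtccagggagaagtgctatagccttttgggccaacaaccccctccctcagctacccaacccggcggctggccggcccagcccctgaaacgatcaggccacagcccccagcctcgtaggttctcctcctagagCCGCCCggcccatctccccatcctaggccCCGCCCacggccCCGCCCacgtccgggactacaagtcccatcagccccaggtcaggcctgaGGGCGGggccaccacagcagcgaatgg
Elovl6: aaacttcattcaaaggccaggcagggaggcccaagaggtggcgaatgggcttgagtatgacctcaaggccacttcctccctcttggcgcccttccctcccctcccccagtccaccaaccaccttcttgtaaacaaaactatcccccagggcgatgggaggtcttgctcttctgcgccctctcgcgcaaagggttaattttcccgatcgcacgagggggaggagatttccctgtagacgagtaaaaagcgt
Thrsp: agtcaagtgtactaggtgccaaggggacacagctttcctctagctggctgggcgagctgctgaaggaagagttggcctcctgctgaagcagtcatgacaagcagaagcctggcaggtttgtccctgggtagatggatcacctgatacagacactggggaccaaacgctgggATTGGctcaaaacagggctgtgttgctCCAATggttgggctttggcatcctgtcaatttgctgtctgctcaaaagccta
The Fasn window held a CCAAT at positions -62 to -58 from the start and reverse-strand matches at -59 to -55, which overlaps the first, and at -90 to -86. The Thrsp window held a CCAAT at -52 to -48 and a reverse-strand match at -79 to -75. The Acly window had no CCAAT but 4 GC boxes, the nearest at -27 to -22, and the Elovl6 window had neither. Among the 11 member starts, 6 held a CCAAT, against 33.8% of 32851 promoters of the same length, and 5 held a GC box, against 32.7%. The letters of the E-box CACGTG (6.02% of all promoters) and of a sterol regulatory element, TCACNCCAC (1.05%), were in none of the 11 windows on either strand, which says only that these letters are not in the windows.

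After hepatectomy 5 of the 8 genes fell by 20 h in Cre minus livers, and Me1, Scd1 and Gpam did not pass the test at that time. At 20 h, Thrsp was 5.06-fold lower, Srebf1 4.22-fold, Fasn 2.89-fold, Elovl6 2.84-fold and 2.45-fold by its 2 probe sets, and Acly 2.61-fold. These 6 of 11 probe sets, from 5 of the 8 genes, were called lower, where 4.04% of all tested probe sets were. At 30 h the count was 4 of 11 (Fasn, Acly, Thrsp and Elovl6 103665_at), beside 2.13% of all, and at 40 h it was 2 of 11 (Fasn and Gpam), beside 2.44%. No member was called higher in any of the 15 comparisons. The median difference of the 11 probe sets from 0 h was -1.29, -1.03 and -0.92 at 20, 30 and 40 h, and that of all tested probe sets -0.03, -0.01 and 0. The plot of differences from 0 h gives the intervals.

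Cre plus livers had calls at later times. At 20 h, 0 of 11 probe sets passed in limma, where 5.52% of all were called lower, although 5 of the 11 had an unadjusted p under 0.05. At 30 h both Elovl6 probe sets fell (2 of 11, beside 6.34% of all), and at 40 h Fasn, Acly, Srebf1 and Elovl6 103665_at fell (4 of 11, beside 6.07%). The member medians were -0.66, -0.50 and -0.91 at 20, 30 and 40 h, and those of all tested probe sets -0.02, 0 and 0.01. All 3 comparisons within a genotype share the same 0 h samples. The difference between genotypes in the change from 0 h was tested directly and called for no member at 20, 30 or 40 h, where 0%, 0.0108% and 0.584% of all tested probe sets were called, and 1 member had an unadjusted p under 0.05 at each time.

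**Figure D1:**
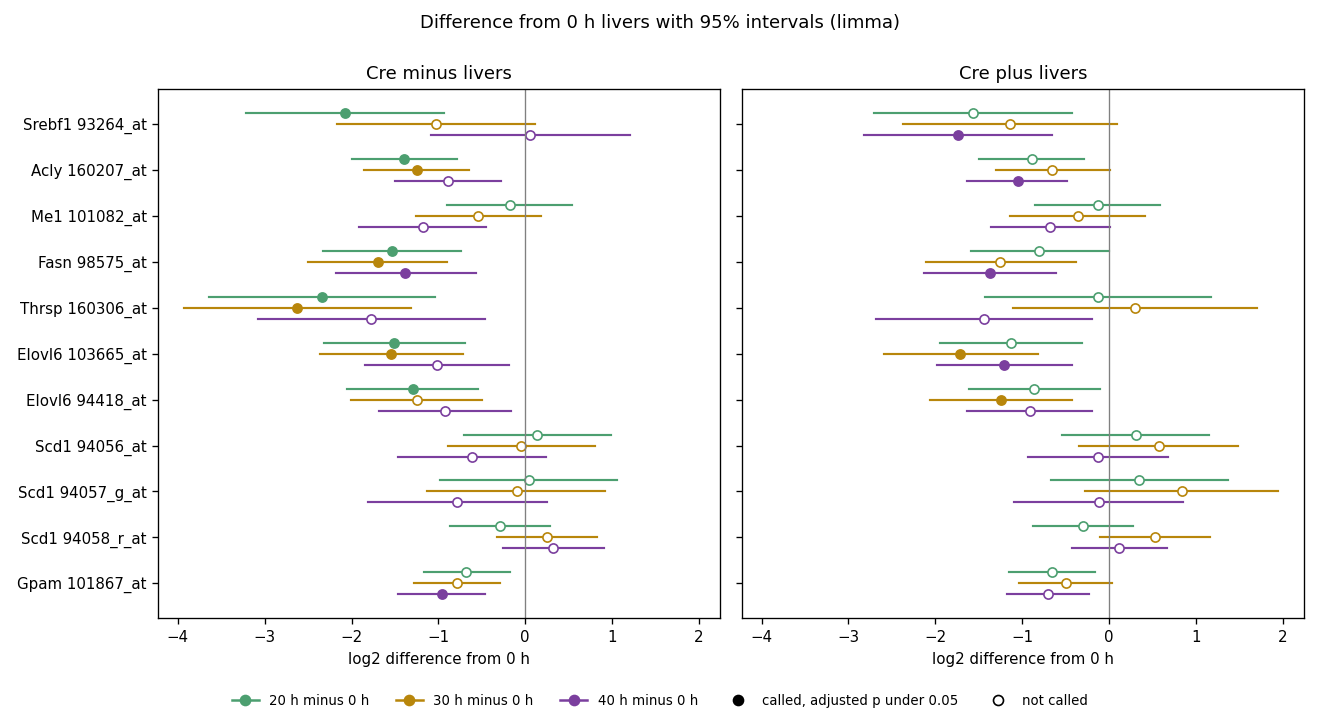
Log2 difference from 0 h (x axis) of the 11 probe sets (rows) in Cre minus and Cre plus livers, at 20, 30 and 40 h, with 95% intervals from limma; filled points were called. Filled points lie left of 0 in both panels, with 6 at 20 h in Cre minus livers and none at 20 h in Cre plus livers.

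Several of these counts rested on single arrays. Leaving out replicate A or C of the Cre minus 0 h group left 1 call at 20 h, that of Acly, and 0 at 30 and 40 h. At 20 h in Cre minus livers, 3 remained without replicate C or D of that time. In Cre minus livers the 30 h count also went to 0 without replicate B of 30 h, and the 40 h count went to 0 without replicate B and to 1 without replicate C of 40 h or replicate B of 0 h. In Cre plus livers the 40 h count was 1 without replicate A of 0 h, 0 without replicate B or C of 0 h, and 2 without replicate B of 40 h. The 30 h count in Cre plus livers was 0 without replicate B of 30 h and 1 without replicate B or C of 0 h or replicate A or C of 30 h. At 20 h, Cre plus livers had 1 call without replicate D of 0 h, 3 without replicate C of 20 h and 2 without replicate D of 20 h. With 1 array left out, the calls over all 9249 tested probe sets, in either direction, moved as well. In Cre minus livers they ranged from 331 to 768, 88 to 270 and 241 to 401 at 20, 30 and 40 h. In Cre plus livers the ranges were 265 to 1118, 423 to 647 and 452 to 907. The main fit called 308 higher and 374 lower at 20 h in Cre minus livers. Without the 3 arrays that stood apart, Cre minus livers had 7, 4 and 5 members called lower at 20, 30 and 40 h and Cre plus livers 4, 1 and 4. In that fit 11.2%, 3.15% and 6.84% of all tested probe sets were called in either direction for Cre minus and 14.4%, 14% and 10.9% for Cre plus, so the 1 of 11 at 30 h in Cre plus livers was under its background.

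Srebf1 encodes the membrane-bound transcription factor whose cleaved form activates the genes of fatty acid synthesis. In Cre minus livers its probe set 93264_at read 10.08, 10.13, 10.49 and 9.97 at 0 h, and 7.91, 7.90, 8.21 and 8.34 at 20 h. These groups did not overlap, and the difference was -2.08 (SE 0.55, adjusted p = 0.0213), with -1.78 within PHX2 and -2.38 within PHX3. At 30 h the 4 samples spread over 8.96, 8.11, 10.01 and 9.48, and at 40 h they read 10.94, 9.54, 10.50 and 9.34, a range that covers the 0 h samples. Neither time was called in Cre minus livers, with differences of -1.03 (95% interval -2.17 to 0.11) and 0.06 (-1.08 to 1.21).

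Srebf1 in Cre plus livers read 10.04, 10.60, 10.68 and 9.70 at 0 h, overlapping the Cre minus samples. At 20 h they read 7.77, 8.35, 10.08 and 8.57, so 3 samples lay below all 0 h samples and replicate C lay among them. The 3 samples at 30 h were far apart, at 7.52, 9.72 and 10.40, the lowest being the array that stood apart from its group. At 40 h, 4 of 5 samples were low, at 8.44, 7.36, 8.38 and 7.51, and replicate D, which also stood apart, was at 10.59. The 40 h difference from 0 h was -1.74 (SE 0.53, adjusted p = 0.0359), and -2.30 without the arrays that stood apart (adjusted p = 0.000725). Those at 20 and 30 h, -1.56 and -1.14, were not called.

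At 40 h the group means of Srebf1 were 8.46 ± 1.29 (SD, n = 5) in Cre plus and 10.08 ± 0.77 (SD, n = 4) in Cre minus livers. The difference of -1.71 (SE 0.53, 95% interval -2.79 to -0.63) had an adjusted p of 0.056 and was not called. It was -2.27 within PHX3 and -0.28 within PHX2. The PHX2 value sets 1 Cre minus sample, at 9.34, against Cre plus samples at 10.59 and 7.51, so it is imprecise. The pooled difference passed without Cre plus replicate D (-2.16, adjusted p = 0.00781). It passed without Cre minus replicate D (-2.18, adjusted p = 0.0192), the only PHX2 sample of that group. It also passed without the 3 arrays that stood apart (-2.16, adjusted p = 0.00139), where 7.16% of all tested probe sets were called. In a fit to PHX3 alone it passed as well (adjusted p = 0.00365). Without Cre minus replicate A its adjusted p was 0.236. The change from 0 to 40 h differed between genotypes by -1.80, which was not called (adjusted p = 0.683 in limma).

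**Figure D2:**
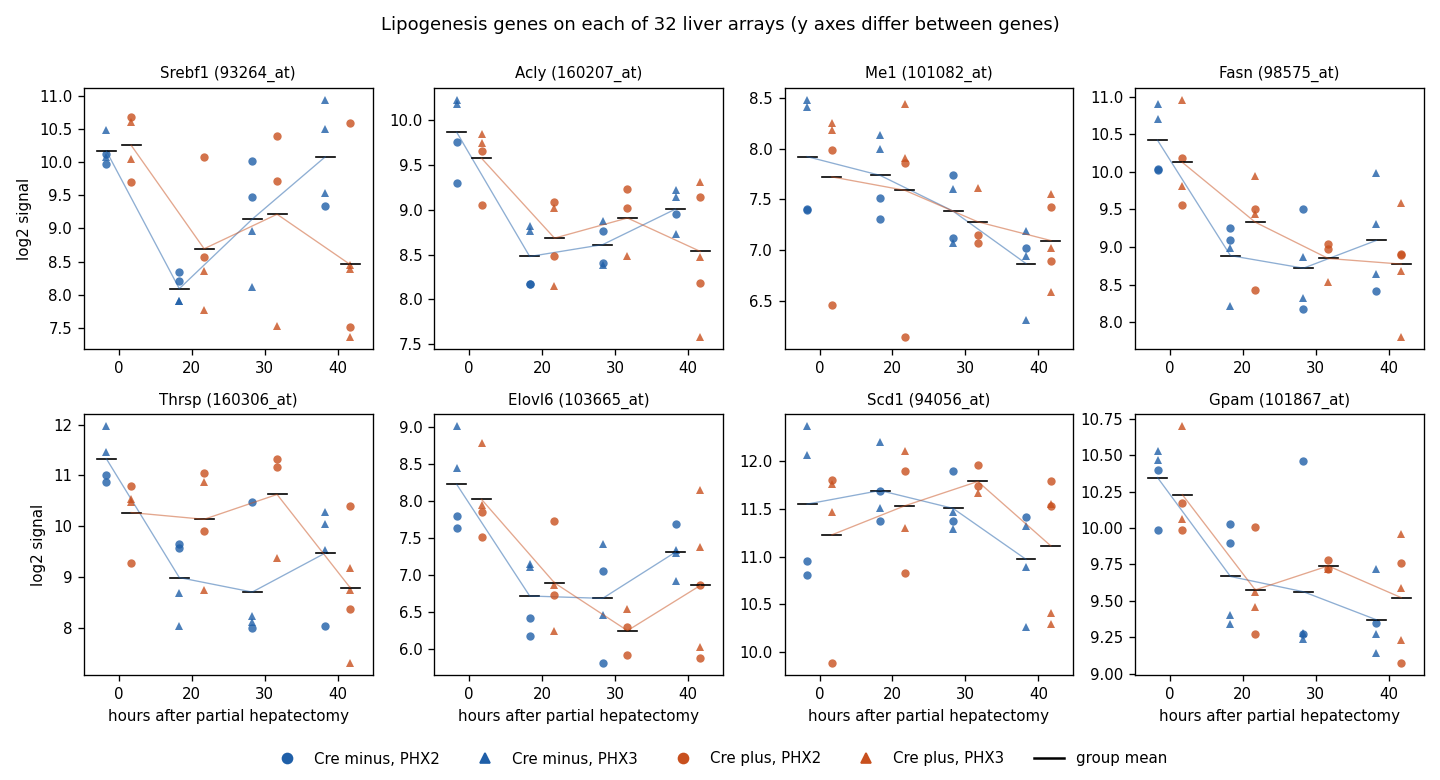
Log2 signal (y axis, on a different range for each gene) of 1 probe set for each of the 8 genes against hours after partial hepatectomy, for every array; colour gives the genotype, shape the batch, and bars, joined by lines, the group means (times are evenly spaced on the axis). For Fasn, Acly, Elovl6 and Gpam both 0 h groups have the highest means, while Srebf1 at 40 h lies between 7.36 and 8.44 in 4 of 5 Cre plus samples.

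Acly encodes ATP citrate lyase, which makes cytosolic acetyl-CoA. At 0 h probe set 160207_at read 10.23, 9.76, 10.18 and 9.30 in Cre minus livers and 9.75, 9.85, 9.66 and 9.05 in Cre plus livers. At 20 h the Cre minus samples read 8.76, 8.82, 8.17 and 8.17, all below the 0 h samples. The difference of -1.39 (SE 0.29, adjusted p = 0.00587) was nearly the same in both batches, -1.36 and -1.41, and passed with each of the 8 arrays left out in turn (highest adjusted p = 0.0289). At 30 h, with 8.88, 8.39, 8.77 and 8.41, the difference was -1.25 (SE 0.29, adjusted p = 0.0203). By 40 h, with 9.22, 9.14, 8.73 and 8.95, it was -0.89 and missed the threshold (adjusted p = 0.0883), though the groups still did not overlap. Acly in Cre plus livers read 8.15, 9.02, 9.09 and 8.48 at 20 h and 8.48, 9.02 and 9.23 at 30 h, and neither was called, with differences of -0.89 (adjusted p = 0.0558) and -0.65. At 40 h it read 8.47, 7.58, 9.31, 9.14 and 8.18, where 2 samples reached the 0 h range and 3 did not, and the difference was -1.05 (SE 0.28, adjusted p = 0.0183), -0.69 within PHX2 and -1.34 within PHX3.

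Me1 encodes cytosolic malic enzyme, a source of NADPH. Its probe set 101082_at was called in no comparison. The samples ranged from 7.39 to 8.48 at 0 h and from 6.31 to 7.19 at 40 h in Cre minus livers, which did not overlap, and from 6.46 to 8.25 and from 6.58 to 7.55 in Cre plus livers, which did. The difference at 40 h was -1.18 in Cre minus livers (95% interval -1.91 to -0.45, adjusted p = 0.0523) and -0.68 in Cre plus livers (-1.36 to 0.01). Within PHX2, where Cre minus at 40 h has 1 sample, the Cre minus difference was -0.38, and within PHX3 it was -1.63.

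Fasn encodes fatty acid synthase, the enzyme that builds palmitate. Probe set 98575_at read 10.71, 10.03, 10.91 and 10.04 in Cre minus livers at 0 h, and 8.22, 8.98, 9.09 and 9.25 at 20 h. The 30 h samples read 8.87, 8.32, 9.51 and 8.17 and the 40 h samples 9.99, 8.64, 9.30 and 8.42. Every Cre minus sample after surgery lay below every 0 h sample. The differences were -1.53, -1.70 and -1.38 at 20, 30 and 40 h (SE 0.39 each, adjusted p = 0.0166, 0.0170 and 0.0393), and below 0 in both batches at each time, from -0.86 to -2.21. Fasn was the one member called at all 3 times in Cre minus livers.

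Fasn in Cre plus livers read 9.81, 10.96, 10.18 and 9.56 at 0 h and 9.44, 9.95, 8.43 and 9.50 at 20 h, where the groups overlapped. At 30 h the 3 samples, 8.53, 8.97 and 9.04, were all below the 0 h samples, but the difference of -1.25 had an adjusted p of 0.058. At 40 h the samples were 7.80, 8.68, 9.59, 8.89 and 8.90, with 1 sample just inside the 0 h range, and the difference of -1.37 was called (SE 0.37, adjusted p = 0.0198), and the PHX2 arrays alone gave -0.97 and the PHX3 arrays -1.69. The means at 40 h were 9.09 ± 0.71 (SD, n = 4) in Cre minus and 8.77 ± 0.64 (SD, n = 5) in Cre plus livers, a difference of -0.29 (95% interval -1.05 to 0.47).

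Thrsp encodes a small acidic protein, induced by thyroid hormone and carbohydrate, that promotes fatty acid synthesis. Probe set 160306_at had the widest range of the 11, from 7.30 to 11.97. In Cre minus livers it read 11.47, 11, 11.97 and 10.88 at 0 h and 8.04, 8.69, 9.65 and 9.58 at 20 h. At 30 h it read 8.24, 8.11, 10.47 and 8, the high value being the array that stood apart. The differences of -2.34 and -2.63 (SE 0.63 each, adjusted p = 0.0234 and 0.0238) came from groups that did not overlap, and were -1.33 and -1.71 within PHX2 and -3.35 and -3.54 within PHX3. At 40 h the samples were 10.29, 9.53, 10.04 and 8.03, all below the 0 h samples, with a difference of -1.77 (adjusted p = 0.121).

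In Cre plus livers Thrsp at 0 h read 10.47, 10.54, 10.80 and 9.27, all below the lowest Cre minus sample, although the difference of -1.06 was not called (SE 0.63, adjusted p = 1). This was the 1 probe set of 11 whose genotypes did not overlap at 0 h, beside 3.21% of all tested probe sets, and at 20, 30 and 40 h 0 of 11 did so, beside 2.08%, 6.04% and 6.11%. At 20 h the samples read 8.74, 10.87, 11.04 and 9.90 and at 30 h 9.38, 11.33 and 11.17, and the differences from 0 h were -0.13 (95% interval -1.43 to 1.17) and 0.30 (-1.11 to 1.71). At 40 h they read 7.30, 9.17, 8.74, 10.39 and 8.37, and the difference from 0 h was -1.44 (adjusted p = 0.139). Without the arrays that stood apart, the 40 h differences from 0 h passed in limma in Cre plus (-1.91, adjusted p = 0.0174) and Cre minus livers (-1.90, adjusted p = 0.0251). That fit called 10.9% and 6.84% of all tested probe sets. No Cre minus sample of 0 or 40 h was left out, so there only the shared spread and batch term changed.

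The genotypes' Thrsp difference was 1.15 at 20 h (95% interval -0.16 to 2.45) and 1.86 at 30 h (0.45 to 3.27, adjusted p = 0.265), higher in Cre plus livers in both batches, at 2.02 and 1.20 at 30 h. Without the arrays that stood apart, which leaves 3 Cre minus and 2 Cre plus samples at 30 h, the 30 h difference was 3.23 and passed (adjusted p = 0.00516), in a fit that called 10.3% of all tested probe sets. The difference in time course was 2.21 at 20 h (95% interval 0.37 to 4.05, adjusted p = 1) and 2.92 at 30 h (1 to 4.84, adjusted p = 0.975). Without those arrays it was 4.29 at 30 h (adjusted p = 0.0189 in limma). The Cre plus samples left at 30 h are all of PHX2, while the Cre minus samples left are of both batches. The 30 h values without those arrays therefore rest on the batch term, with no comparison left within PHX3. Whether the 30 h difference was called depended on which arrays were kept.

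Elovl6 encodes the elongase that extends palmitate to stearate. Its probe sets 103665_at and 94418_at followed each other over the 32 arrays with r = 0.98. Probe set 103665_at read 8.45, 7.63, 9.01 and 7.80 at 0 h and 7.11, 7.15, 6.42 and 6.17 at 20 h in Cre minus livers, with no overlap. At 30 h it read 7.42, 6.45, 5.80 and 7.05, and at 40 h 7.33, 6.91, 7.30 and 7.69, where 1 sample was again inside the 0 h range. The differences were -1.51 and -1.54 at 20 and 30 h (SE 0.40 each, adjusted p = 0.0205 and 0.0318), and -1.02 at 40 h, which was not called (adjusted p = 0.169). Without the array that stood apart, the 30 h difference of this probe set was not called.

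The Cre plus samples read 7.94, 8.78, 7.85 and 7.51 at 0 h and 6.24, 6.86, 6.73 and 7.73 at 20 h. All 3 samples at 30 h, 6.53, 5.91 and 6.29, were below those at 0 h, with a difference of -1.71 (SE 0.43, adjusted p = 0.0134), -1.58 within PHX2 and -1.84 within PHX3. At 40 h the samples spread from 5.87 to 8.15, overlapping the 0 h samples, and the difference was -1.21 (SE 0.38, adjusted p = 0.0424). The second probe set, 94418_at, gave -1.29 at 20 h in Cre minus livers (adjusted p = 0.0306) and -1.24 at 30 h in Cre plus livers (adjusted p = 0.0472), and was called nowhere else. Without the arrays that stood apart, neither 103665_at at 40 h nor 94418_at at 30 h was called in Cre plus livers. At 40 h in Cre minus livers both probe sets were near 0 h within PHX2, with -0.02 and 0.13 from 1 sample, and lower within PHX3, with -1.55 and -1.48.

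Scd1 encodes stearoyl-CoA desaturase, which makes oleate and palmitoleate. None of its 3 probe sets was called in any comparison. Probe set 94056_at ranged from 9.88 to 12.37 over all arrays and 94057_g_at from 8.94 to 12.26. Within the Cre minus 0 h group 94056_at read 12.37, 10.96, 12.07 and 10.81, so that the PHX3 samples lay above the PHX2 samples. Its difference from 0 h in Cre minus livers was 0.14 at 20 h (95% interval -0.70 to 0.99), -0.05 at 30 h and -0.61 at 40 h (-1.46 to 0.24), and in Cre plus livers 0.31, 0.58 and -0.13. The batches differed in sign: at 40 h in Cre minus livers the PHX2 arrays, with 1 sample at 40 h, gave 0.53 and the PHX3 arrays -1.40. The 2 probe sets 94056_at and 94057_g_at correlated at r = 0.99 over the arrays, whereas 94058_r_at correlated with them at -0.32 and -0.21 and spanned only 7.12 to 9.04. The probe sets of Scd1 thus disagreed. By the annotation 94056_at and 94057_g_at stem from the same sequence record and 94058_r_at from another.

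Gpam encodes the mitochondrial acyltransferase that attaches the first fatty acid to glycerol 3-phosphate. Probe set 101867_at had a narrow range, from 9.07 to 10.70. In Cre minus livers it read 10.47, 10.40, 10.53 and 9.99 at 0 h and 9.72, 9.14, 9.27 and 9.35 at 40 h, with no overlap and a difference of -0.96 (SE 0.24, adjusted p = 0.0181), -0.84 within PHX2 and -1.12 within PHX3. At 30 h 3 samples read 9.24 to 9.28 and replicate C, the array that stood apart, 10.46. The 30 h difference was -0.78 (adjusted p = 0.073), and -1.08 without that array (adjusted p = 0.00366). In Cre plus livers the samples ranged from 9.99 to 10.70 at 0 h and from 9.07 to 9.96 at 40 h, which did not overlap, and the difference of -0.70 had an adjusted p of 0.0505. The differences at 20 and 30 h, -0.66 and -0.50, were not called.

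Ordered by group mean, the 2 groups at 0 h came first for Srebf1, Fasn, Acly, Gpam and both Elovl6 probe sets. For each of these but Srebf1, 1 of the 7 gaps between neighbours was larger than the larger SD of the neighbouring groups, and it was the gap below the 0 h groups. For Srebf1, Thrsp, Me1 and the Scd1 probe sets no gap between neighbours exceeded the larger SD. From 30 to 40 h no member was called in either genotype in limma and none had groups without overlap (3.58% of all tested probe sets for Cre minus, 1.51% for Cre plus). Over the array, 1.02% of tested probe sets were called for Cre minus livers and 0% for Cre plus. At an unadjusted p under 0.05 the member counts were 0 and 1. Without the arrays that stood apart, Thrsp (-2.97) and Srebf1 (-2.05) passed in Cre plus livers, in a fit that called 8.78% of all tested probe sets there. Cre plus at 30 h then holds only PHX2 samples. The array left out there had the lowest 30 h values of Thrsp and Srebf1 (9.38 and 7.52). The one left out at 40 h had the highest 40 h values (10.39 and 10.59).

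Groups that did not overlap were counted as well. Of the 11 probe sets, 6, 5 and 5 did not overlap with 0 h at 20, 30 and 40 h in Cre minus livers, where 16.9%, 10.3% and 15.2% of all tested probe sets did not. In Cre plus livers 0, 4 and 1 did not overlap, beside 16.8%, 24.8% and 10.6%. The 4 at 30 h in Cre plus livers rest on 3 samples and were Fasn, Gpam and both Elovl6 probe sets.

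Between genotypes at the same time, 0 of the 11 probe sets were called in limma at 0, 20, 30 or 40 h. The share of all tested probe sets called was 0.0649%, 0.292%, 0.281% and 5.35%. At an unadjusted p under 0.05 the member counts were 0, 0, 1 (Thrsp) and 1 (Srebf1). The median member difference was -0.21, 0.18, 0.16 and -0.20 at the 4 times. Outside Thrsp and Srebf1, the pooled differences ranged from -0.45, for Acly at 40 h, to 0.54, for Scd1 94057_g_at at 30 h, and their intervals all included 0. For Fasn the interval ran from -1.09 to 0.51 at 0 h and from -1.05 to 0.47 at 40 h.

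**Figure D3:**
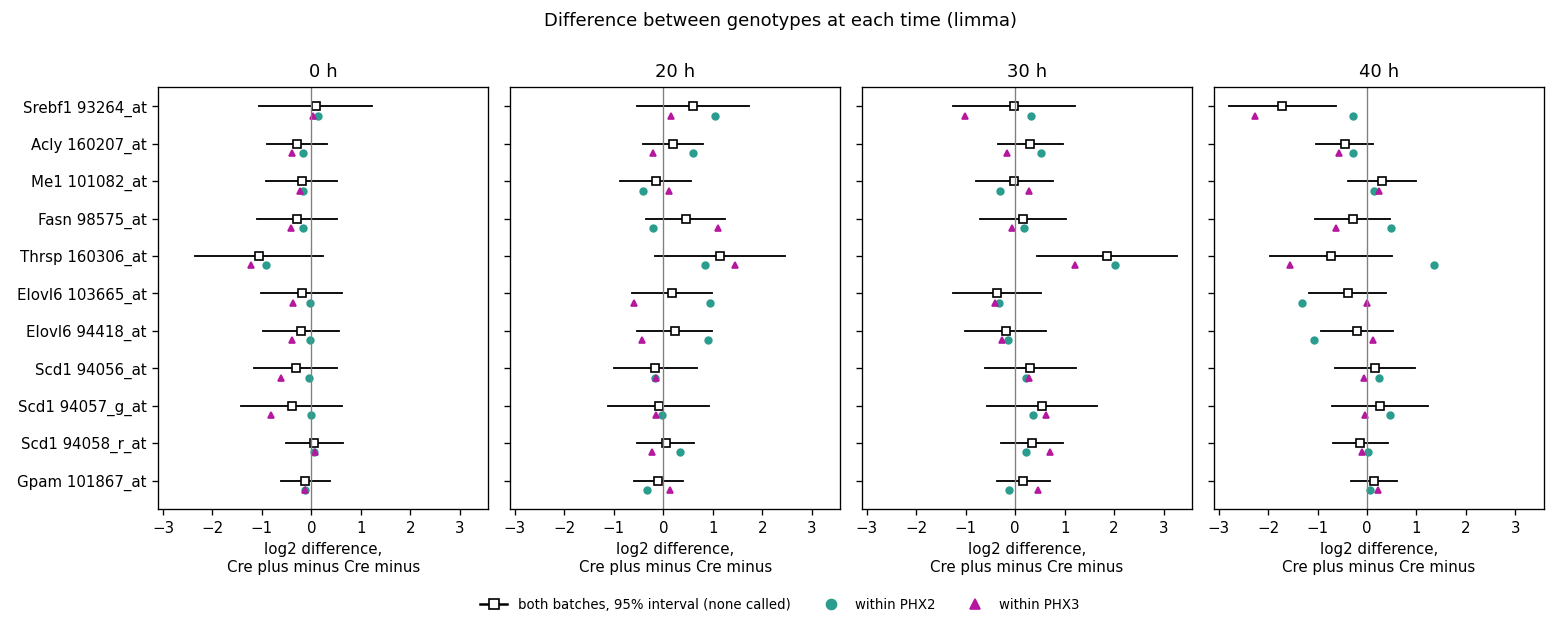
Log2 difference of Cre plus from Cre minus livers (x axis) for the 11 probe sets (rows) at 0, 20, 30 and 40 h; squares with 95% intervals are from both batches, circles and triangles are the values within PHX2 and PHX3. None of the squares was called, and at 40 h Srebf1 stands at -0.28 within PHX2, where Cre minus has 1 sample, and -2.27 within PHX3.

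Across the 32 arrays, with batch means removed, the genes did not move as 1 block. The pairs Acly and Srebf1 (r = 0.79), Fasn and Thrsp (0.74), Fasn and Gpam (0.73) and Scd1 and Me1 (0.73) were the closest. With group means removed as well, Scd1 and Me1 stayed at 0.77, Acly and Srebf1 at 0.71, Thrsp and Srebf1 at 0.70 and Fasn and Thrsp at 0.64, while Acly and Elovl6 went from 0.70 to 0.38 and Fasn and Elovl6 from 0.59 to 0.07. Fasn followed the mean of the other members most closely (r = 0.85) and Scd1 least (0.28). These values are descriptions over arrays that share groups and a normalization.

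**Figure D4:**
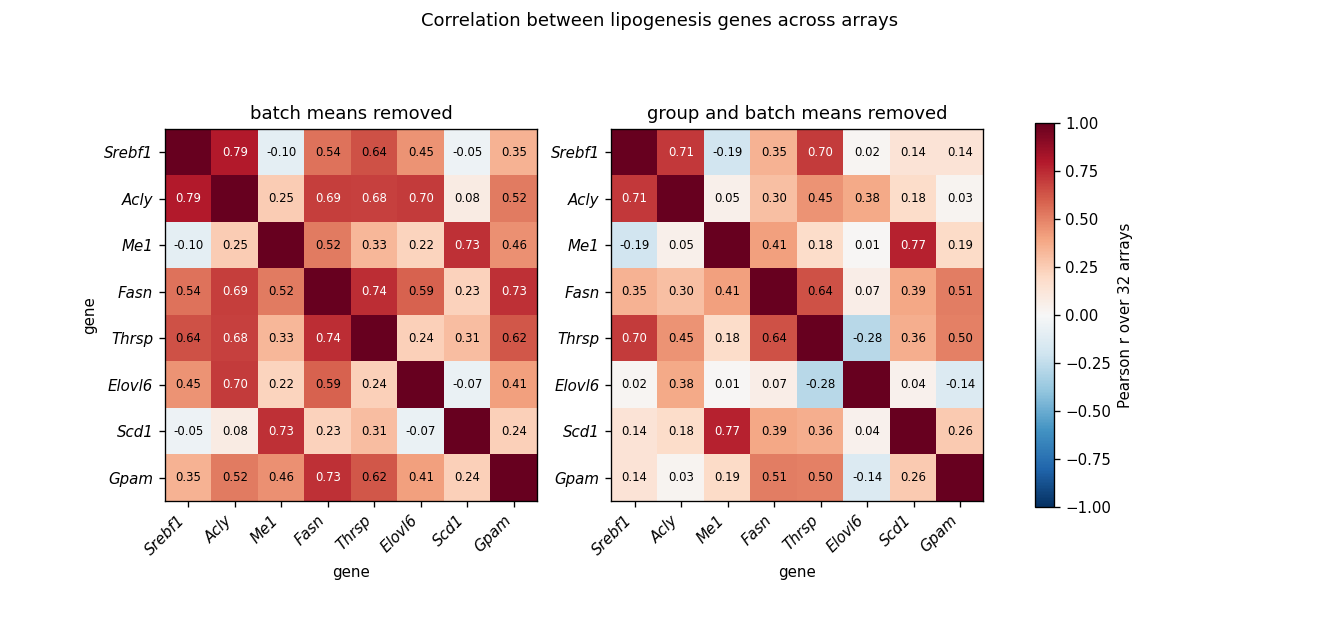
Pearson correlation over 32 arrays between the 8 genes (rows and columns, 1 probe set each), with batch means removed on the left and with group and batch means removed on the right. Acly and Srebf1 keep 0.71 of 0.79 and Scd1 and Me1 keep 0.77, while Fasn and Elovl6 go from 0.59 to 0.07.

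The 10 genes outside the list whose values were most like the mean of the members, over the same 32 arrays with batch means removed, were Prxl2a, Cyb5r3 and C2 (r = 0.88 each), Gm2a, Gpld1 and Slc27a5 (0.86 each), Hgfac (0.85), and Gamt, Acsl5 and Aplp2 (0.84 each). Cyb5r3 encodes a cytochrome b5 reductase, the electron donor system used by desaturases, Acsl5 an acyl-CoA synthetase, Slc27a5 a bile acyl-CoA ligase and C2 a complement component. At 40 h Hgfac was 1.22 lower than at 0 h in Cre minus livers and 0.94 lower in Cre plus livers. These 10 genes were picked for following the members over the same arrays, so their falls are no separate support.

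Other genes of fatty acid synthesis and NADPH supply followed in part. Of 6 tested, 2, 1 and 2 were called lower at 20, 30 and 40 h in Cre minus livers, beside 4.04%, 2.13% and 2.44% of all tested probe sets. In Cre plus livers 1, 2 and 2 were, beside 5.52%, 6.34% and 6.07%, and none was called higher in either genotype. Slc25a1, the mitochondrial citrate carrier, fell in all 6 comparisons with 0 h, with log2 differences of -0.45, -0.34 and -0.33 (Cre minus) and -0.43, -0.42 and -0.47 (Cre plus; adjusted p from 0.00176 to 0.0446). Idh1, a cytosolic NADPH source, fell at 40 h in both genotypes, with differences of -0.79 (Cre minus) and -0.87 (Cre plus), and at 30 h in Cre plus livers (-0.82). Taldo1, of the pentose phosphate pathway, fell at 20 h in Cre minus livers by 0.37. Acaca, the acetyl-CoA carboxylase gene, was not analysed here.

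Among 8 elongases, desaturases and their partners, 1, 0 and 0 were called lower in Cre minus livers, beside 4.04%, 2.13% and 2.44% of all. In Cre plus livers 1, 2 and 2 were, beside 5.52%, 6.34% and 6.07%, with 1 called higher at 20 h, where 3.55% of all were. Fads1, a polyunsaturated fatty acid desaturase, fell at 20 h in both genotypes (-0.81 in Cre minus, -0.82 in Cre plus), and at 30 and 40 h in Cre plus livers (-0.98 and -1.14). It was the 1 gene of this list called between genotypes, at 40 h, where 5.35% of all tested probe sets were called. The difference was -0.82 (SE 0.23, adjusted p = 0.035), with -0.68 within PHX2 and -0.84 within PHX3. Elovl3 (-1.11 at 40 h) and Scd2 (-0.37 at 30 h) fell in Cre plus livers, and Hacd3, a dehydratase of the elongation cycle, rose there at 20 h (0.70). Elovl5 was not called, with 0.82 at 20 h in Cre minus livers (adjusted p = 0.169). Fads2 was not analysed here.

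Genes of triglyceride and phospholipid assembly did not share a direction. Of 8 tested, Acsl5 was called lower at 20 and 40 h in Cre minus livers (-0.65 and -0.71) and at 40 h in Cre plus livers (-0.70). Called higher were 0, 1 and 0 in Cre minus livers, beside 3.33%, 1.01% and 2.32% of all, and 1, 3 and 2 in Cre plus livers, beside 3.55%, 3.56% and 3.59%. Lpin1, a phosphatidate phosphatase and coactivator, rose in Cre plus livers by 2.16 at 20 h and 2.01 at 30 h (adjusted p = 0.0119 and 0.0279), and Dgat1, which forms triglyceride, by 0.87 at 30 h (adjusted p = 0.00234). Lpin2 rose at 40 h in Cre plus livers (1.01), and Agpat3, an acyltransferase, at 30 h in both genotypes (0.58 and 0.54) and at 40 h in Cre plus livers (0.50). In Cre minus livers Lpin1 stood at 0.48 and 0.39 at 20 and 30 h and was not called, and the difference between genotypes in its time course was not called either.

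Regulators of lipogenesis were tested for 9 genes. Of these 1, 1 and 0 were called lower in Cre minus livers, beside 4.04%, 2.13% and 2.44% of all tested probe sets. In Cre plus livers 2, 3 and 2 were, beside 5.52%, 6.34% and 6.07%. Mid1ip1, the paralog and partner of Thrsp, fell at 20 and 30 h in Cre minus livers (-0.89 and -0.92, adjusted p = 0.00281 and 0.00339) and at all 3 times in Cre plus livers (-0.77, -1.13 and -0.96, adjusted p from 0.000451 to 0.00617). Mbtps1, the protease that makes the first cut in the Srebf1 product, fell at all 3 times in Cre plus livers (-0.31, -0.32 and -0.27), and Akt2, an insulin-signalling kinase, at 30 h (-0.37). Irs2, an insulin receptor substrate, rose there at 20 and 30 h (0.38 and 0.53). Nr1h3, the liver X receptor alpha gene, was not called, with -0.78 at 30 h in Cre plus livers as its largest difference from 0 h. Insig1 did not pass the filter on low values, and Mlxipl was not analysed here.

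In the list of glucose entry and glycolysis, 4 genes were tested. Pklr, the liver pyruvate kinase, fell at 20, 30 and 40 h in Cre minus livers (-0.45, -0.56 and -0.65, adjusted p = 0.0218, 0.0107 and 0.00122), and was not called in Cre plus livers (0.05, -0.24 and -0.20). Its difference in time course was 0.50, 0.32 and 0.45, and not called. Pfkl, the liver phosphofructokinase, fell (-0.56, -0.74 and -0.57) and Pdha1, a pyruvate dehydrogenase subunit, rose (0.51, 0.47 and 0.49) at the 3 times in Cre plus livers. Pdha1 was also called between genotypes at 40 h, where 5.35% of all tested probe sets were. The difference was 0.60 (adjusted p = 0.00326), with 0.14 within PHX2 and 0.76 within PHX3.

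Cholesterol synthesis, the other arm under sterol regulatory element binding proteins, was also measured. Of 12 genes tested, 11, 5 and 6 were called lower in Cre minus livers at 20, 30 and 40 h, beside 4.04%, 2.13% and 2.44% of all tested probe sets. In Cre plus livers 10, 5 and 12 of these genes were, beside 5.52%, 6.34% and 6.07%. The median differences were -1.70, -1.41 and -1.37 and then -1.52, -1.22 and -1.68. At 20 h Idi1, Sc5d and Hmgcs1, enzymes of that pathway, had differences of -2.70, -2.69 and -2.24 in Cre minus livers and of -2.38, -2.61 and -2.45 in Cre plus livers. None of the 12 was called between genotypes at any time.

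**Figure D5:**
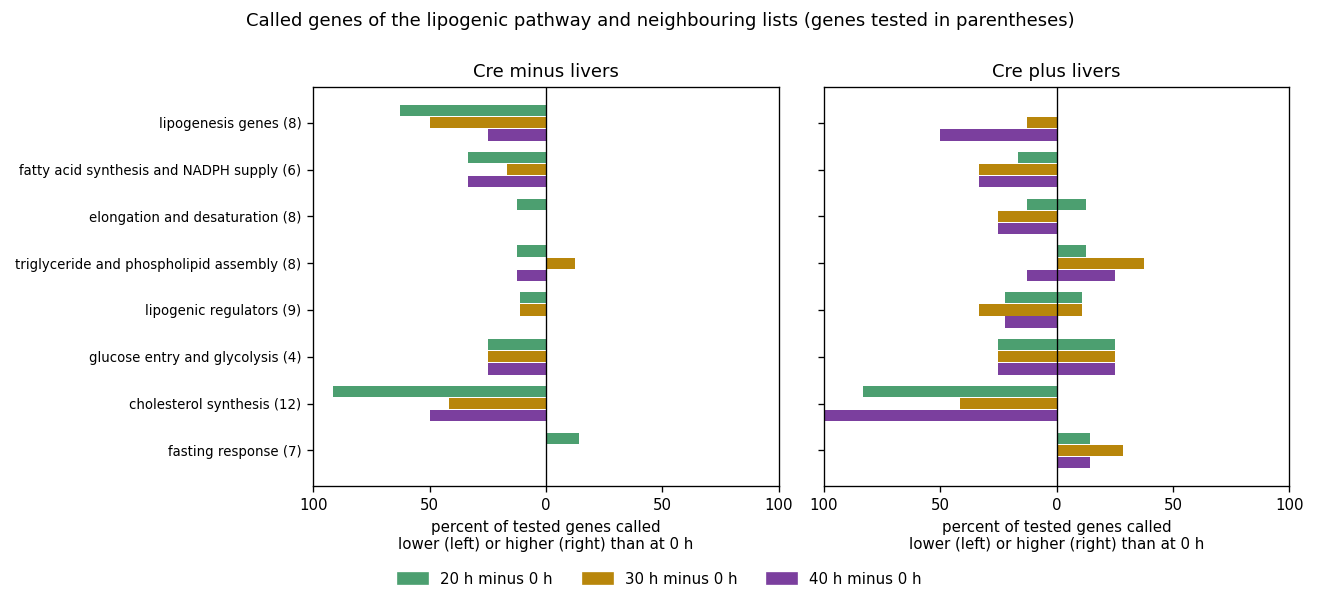
Percent of tested genes called lower (left of 0) or higher (right of 0) than at 0 h in limma, for the 8 lipogenesis genes and 7 related lists (rows, genes tested in parentheses), in Cre minus and Cre plus livers at 20, 30 and 40 h. Cholesterol synthesis has the longest bars, with 11 of 12 genes at 20 h in Cre minus and 12 of 12 at 40 h in Cre plus livers.

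Fasting-response genes, which are usually opposite to lipogenesis, were called in the higher direction only. Of 7 tested, 1, 0 and 0 passed in Cre minus livers, beside 3.33%, 1.01% and 2.32% of all tested probe sets called higher. In Cre plus livers 1, 2 and 1 passed, beside 3.55%, 3.56% and 3.59%. The median differences of the 7 were 0.72, 0.76 and 0.44 in Cre minus livers and 1.08, 1.19 and 0.93 in Cre plus livers. Angptl4, an inhibitor of lipoprotein lipase, rose by 0.81 at 20 h in Cre minus livers and by 1.08, 1.19 and 0.93 at the 3 times in Cre plus livers, and Igfbp1 by 2.13 at 30 h in Cre plus livers. Pck1, the gluconeogenic carboxykinase gene, was not called, with differences from 0.36 to 0.84. Of 10 clock genes, which also follow feeding, Nr1d1 fell in all 6 comparisons with 0 h (from -0.86 to -1.45), and Per1 rose in Cre plus livers (0.63, 0.72 and 0.42). Dbp, a clock output gene, was not called, at -0.90 and -0.44 at 20 h. Feeding state and the hour of collection were not given in the sources used here, and their part in the results was not tested.

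Markers of other cells are given beside these results. The mean level of 9 Kupffer cell and macrophage genes ranged from 8 to 8.30 in Cre minus and from 7.36 to 7.91 in Cre plus samples at 0 h, and from 6.70 to 7.44 in the Cre plus samples after surgery, against 7.50 to 8.23 in the Cre minus samples. Of the 9, 0, 5, 2 and 6 were called lower in Cre plus than in Cre minus livers at 0, 20, 30 and 40 h. Over all tested probe sets 0.0649%, 0.292%, 0.281% and 5.35% were called in either direction. For 7 adipocyte genes the mean level ranged from 6.57 to 6.70 at 0 h, from 6.43 to 7.39 at 20 h from 5.84 to 7.39 at 30 h and from 6.07 to 6.40 at 40 h in Cre minus livers, and from 5.77 to 7.26 over all times in Cre plus livers. The median difference from 0 h of the 6 adipocyte genes tested was -0.11, -0.07 and 0.01 at 20, 30 and 40 h in Cre minus livers. In Cre plus livers it was 0.02, -0.08 and 0.01. Of these 6 genes, Cidec, a lipid droplet protein, rose at 20 h (3.66 in Cre minus, 3.75 in Cre plus) and at 30 h in Cre plus livers (4). Car3 fell at 30 h in Cre minus (-2.93) and at 40 h in Cre plus livers (-2.79), and Lipe, a lipase, at 20 and 30 h in Cre plus livers (-0.42 and -0.40). The mean of 6 hepatocyte genes ranged from 12.14 to 12.45 over all Cre minus samples and from 11.84 to 12.45 over all Cre plus samples, with the lowest group mean, 12.13, in Cre plus livers at 40 h. Of these, Ttr, the transthyretin gene, fell at 20 and 30 h in Cre minus livers (-1.35 and -1.29) and at 30 and 40 h in Cre plus livers (-1.25 and -1.64), and was lower in Cre plus than in Cre minus livers at 40 h (-1.24, adjusted p = 0.0227). Tat, a liver aminotransferase gene, rose at 30 h in Cre minus livers (0.59) and at all 3 times in Cre plus livers (0.95, 1.23 and 0.81). Of 5 erythroid genes, the haemoglobin genes Hba-a1 and Hbb-b2 were called lower in Cre plus than in Cre minus livers at 20 h (-2.59 and -2.53) and at 40 h (-3.12 and -3.13), and rose at 40 h in Cre minus livers (2.23 and 2.16). At 40 h Hba-a1 averaged 11.85 ± 0.46 (SD, n = 4) in Cre minus and 8.75 ± 1.08 (SD, n = 5) in Cre plus livers. The mean level of the 5 ranged from 6.83 to 8.46 over all Cre minus and from 6.09 to 7.30 over all Cre plus samples. The difference between 3' and 5' probe sets of Actb, a sign of RNA integrity, averaged 1.01, 0.92, 1.06 and 1.01 at the 4 times in Cre minus and 1.05, 0.93, 0.84 and 0.97 in Cre plus livers. The part of these values in the lipogenic differences was not tested.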

How the data were processed

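Liver RNA from 32 samples in 8 groups of genotype and time was measured on Affymetrix 3' arrays, prepared from 6 µg of total RNA extracted with Trizol, per the labels' protocols. The authors deposited log2 signals. Per the submitters' processing notes they used RMA, of no stated version, and no source used here says if PHX2 and PHX3 were normalized as 1 set. The log base was read from the values, which lie between 2.30 and 14.12. Of 12488 probe sets, 66 were controls, and of the rest 10833 had 1 gene symbol in the platform annotation, 396 several and 1193 none. Gene coordinates and promoters are from RefSeq, GRCm38.p6.

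To be kept, a probe set had to exceed the 30th percentile of the array's signals on 3 or more arrays (9249 did). limma 3.58.1 in R 4.3.3 fitted the 8 groups and batch to all arrays, with Benjamini-Hochberg adjustment within each of 15 comparisons and a threshold of 0.05. The fit was tested on simulated data. Within-batch values are from fits to each batch alone. Named genes were all members, the 10 genes outside the list most correlated with the members' mean, and, of each related list, up to 4 called genes per comparison by size plus a few fixed genes such as Acaca, Nr1h3, Pklr and Pck1. The members and lists were chosen with earlier results of these data known. Replicate letters were not used to pair samples in the main fit. Over 105 same-letter pairs, the deviations from the group means had a mean correlation of -0.0342 (from -0.633 to 0.548), beside 0.00972 for different letters. Such a mean cannot exclude that some samples were paired. Alternatives were other filters and scalings, array weights, left-out arrays, the compared groups alone, no batch term and a replicate block.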

Additional observations from a re-analysis of the deposited data

Results flagged for a closer look

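In 77 groups of 4 or 5 values, 3 held a sample far from the others; chance alone flags about 1 in 20 groups. Thrsp was at 10.47 in replicate C of Cre minus at 30 h, where the other samples lay between 8 and 8.24. Gpam was at 10.46 in that same sample, with the others between 9.24 and 9.28, and this array is among the 3 that stood apart from their groups. Me1 was at 6.46 in replicate D of Cre plus at 0 h, with the others between 7.99 and 8.25.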

How the results depend on the processing

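Of 165 member differences, 18 were called, and none of 1485 values under other settings turned a called direction: 20 lost and 55 gained a call. Of 135 counts of called probe sets, 27 moved by over 1.5 times, as follows, and 12 by less (at most 2 probe sets); the causes were not tested. Without a filter, after another quantile normalization, after centring on the array median and with a replicate block, Cre plus livers at 30 h had 1 call in place of 2. In these fits 6.73%, 9.7%, 8.95% and 6.8% of all probe sets were called there, so the 1 of 11 after quantile normalization was under its background. The stricter filter gave 1 call in Cre plus livers at 20 h, under its background of 12.3%. Quantile normalization gave 1 between genotypes at 40 h (5.67% of all). With array weights there were 1 call between genotypes at 30 h (higher in Cre plus) and 1 at 40 h, where 26.3% and 9.31% of all probe sets were called, 7 in Cre minus livers at 40 h (21.2%), 5 at 20 h (28.8%) and 5 at 30 h (1 higher and 4 lower; 38.8%) in Cre plus livers, 1 higher and 3 lower from 30 to 40 h in Cre minus (6.14%) and Cre plus (14.9%) livers, and 2 and 1 for the difference in time course at 30 h (17.2%) and 40 h (2%). The 1 of 11 between genotypes was under its background at 30 h and also, narrowly, at 40 h. Without the 3 arrays that stood apart there were 1 between genotypes at 30 h, under its background of 10.3%, and 1 at 40 h (7.16%). That fit also gave 5 in Cre minus livers at 40 h, 4 (20 h) and 1 (30 h) in Cre plus livers, 2 from 30 to 40 h in Cre plus livers, and 1 for the difference in time course at 30 h. With the compared groups alone, Cre minus livers had 1 at 30 h (1.39% of all) and 6 at 40 h (9.59%). Cre plus livers had 1 at 20 h, under its background of 13.2%, and 0 at 40 h (3.48%). The replicate block, on letters not known to pair the samples, gave 2 in Cre plus livers at 40 h (7.58% of all). Leaving out 1 array at a time gave 1 to 6, 0 to 4 and 0 to 2 calls in Cre minus livers at 20, 30 and 40 h, 0 to 3, 0 to 2 and 0 to 5 in Cre plus livers, 0 to 1 between genotypes at 40 h, and 0 to 0 elsewhere. Over all tested probe sets the calls between genotypes at 40 h then ranged from 295 to 537. The ranges against 0 h stand with the left-out arrays in the Results. Groups of 3 to 5 arrays and 1 sample of a batch in some groups limit the precision, and all 11 probe sets were above the filter on all 32 arrays.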
